A study of Arabidopsis thaliana with 16 samples.

Results

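The module described here is a set of 91 probe sets, of the 9454 that were bright enough to test, whose level was higher in wild type Arabidopsis seedlings given dexamethasone (DEX) and also in wild type seedlings given the cytokinin N6-benzyladenine (BA). The members were chosen from these values on the log2 scale. A member had a mean at least 0.8 higher in wild type with DEX than in untreated wild type, at least 0.7 higher in wild type with paclobutrazol (PAC) and BA than in the 35S::ARR1ΔDDK-GR line with PAC, and at least 0.7 higher in wild type with PAC, gibberellin GA3 and BA than in the line with PAC and GA3. In all, 100 probe sets met these 3 differences, and 9 of them, with the symbols or loci RR16, AT4G11190, AT4G11210, AT5G47980, AT3G50300, AT5G38030, STR18, AT1G68850 and BGLU28, were left out. Of the 91 members, 37 had a single gene in the array's annotation and are named, 3 had several and 51 had none.

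RNA of whole Columbia-0 seedlings, labelled as 6 days old and moved at 5 days to liquid MS medium, was hybridised to 16 Affymetrix ATH1 arrays, with 8 groups of 2 arrays that the labels call biological replicates. Wild type seedlings had DEX, PAC and BA, PAC, GA3 and BA, or no treatment. The 35S::ARR1ΔDDK-GR line had PAC and DEX, PAC, GA3 and DEX, PAC alone, or PAC and GA3. PAC was given at 10 µM for 18 h, with or without 50 µM GA3, and DEX or BA at 5 µM for the 3 h before harvest.

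DEX is a synthetic glucocorticoid, and plants have no glucocorticoid receptor of their own. In the line, the constitutive 35S promoter drives ARR1, a type-B response regulator of the cytokinin pathway, without its receiver region and fused to the hormone-binding domain of the rat receptor (GR), so that DEX moves the protein into the nucleus. BA acts through the plant's own cytokinin receptors, PAC blocks gibberellin synthesis and lets DELLA repressors build up, and GA3 restores the hormone and removes them. Wild type seedlings carry no GR, which makes DEX in wild type a control for effects of the steroid that do not pass through ARR1. The labels name no solvent control. All 5 groups in which the members were high had received DEX or BA in the last 3 h, and none of the 3 groups in which they were low had received either, so the chemical and what came with its addition cannot be told apart. BA was set against the line without DEX, because wild type with only PAC was not analysed here, and BA and genotype therefore cannot be told apart either. Wild type with DEX had no PAC.

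The 3 differences that chose the members are a description and are given without a test. Wild type with DEX lay above untreated wild type by a median of 1.46 over the 91 members, or 2.75-fold, with a range of 0.82 to 4.75. In PAC, wild type with BA lay above the line without DEX by a median of 1.37, or 2.58-fold (range 0.78 to 3.42). In PAC with GA3 the median was 1.70, or 3.25-fold (range 0.71 to 4.49). Over all 9454 probe sets tested the same medians were -0.02, -0.02 and -0.05, and 1.48%, 1.54% and 2.04% of all reached 1. The criterion on DEX in wild type was met by 199 probe sets in all.

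The members were dim in seedlings given neither chemical. Their median log2 level was 5.89 in wild type with DEX, 5.78 in wild type with PAC and BA, 6.26 in wild type with PAC, GA3 and BA, 5.55 in the line with PAC and DEX and 5.91 in the line with PAC, GA3 and DEX, against 3.81 in untreated wild type, 4.03 in the line with PAC and 4.15 in the line with PAC and GA3. The medians of all tested probe sets lay between 5.23 and 5.33 in the 8 groups. Only 55 members reached a level of 4 on at least 2 of the 6 arrays of the 3 groups without DEX or BA, which 91.9% of all tested probe sets did, and the other 36 passed the brightness filter only with arrays of seedlings given DEX or BA. Low values in these 3 groups favoured a member in the rule, so this dimness is not independent of it. The rule also sets each of these groups below another, so no member could have its highest group mean in a group without DEX or BA. Wild type with PAC, GA3 and BA held the highest mean of 43 members, the line with PAC, GA3 and DEX that of 17, wild type with DEX that of 15, wild type with PAC and BA that of 11 and the line with PAC and DEX that of 5.

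Array by array, both arrays of wild type with DEX were above both of untreated wild type for 87 of the 91 members, where 17.4% of all tested probe sets were. The same order held for 85 members between wild type with PAC and BA and the line with PAC (18.4% of all), and for 89 between wild type with PAC, GA3 and BA and the line with PAC and GA3 (24.1% of all). These counts follow from the rule. When the rule was applied to the arrays numbered 1 alone it chose 90 probe sets, and 45 of them, 50%, met it again on the arrays numbered 2, where 0.794% of all tested probe sets did. In the other direction 75 were chosen and 45, 60%, met it again, against 0.953% of all. Both counts are of the same 45 probe sets, those that met the rule on each set of arrays, so the directions are not separate results. With the levels read on the arrays that had not chosen them, the 90 had median differences of 1.44 for DEX in wild type, 0.96 for BA in PAC and 1.57 for BA in PAC with GA3, and all 3 were above 0 for 77 of them. For the 75 the medians were 1.19, 1.44 and 1.72, and 68 had all 3 above 0.

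**Figure D1:**
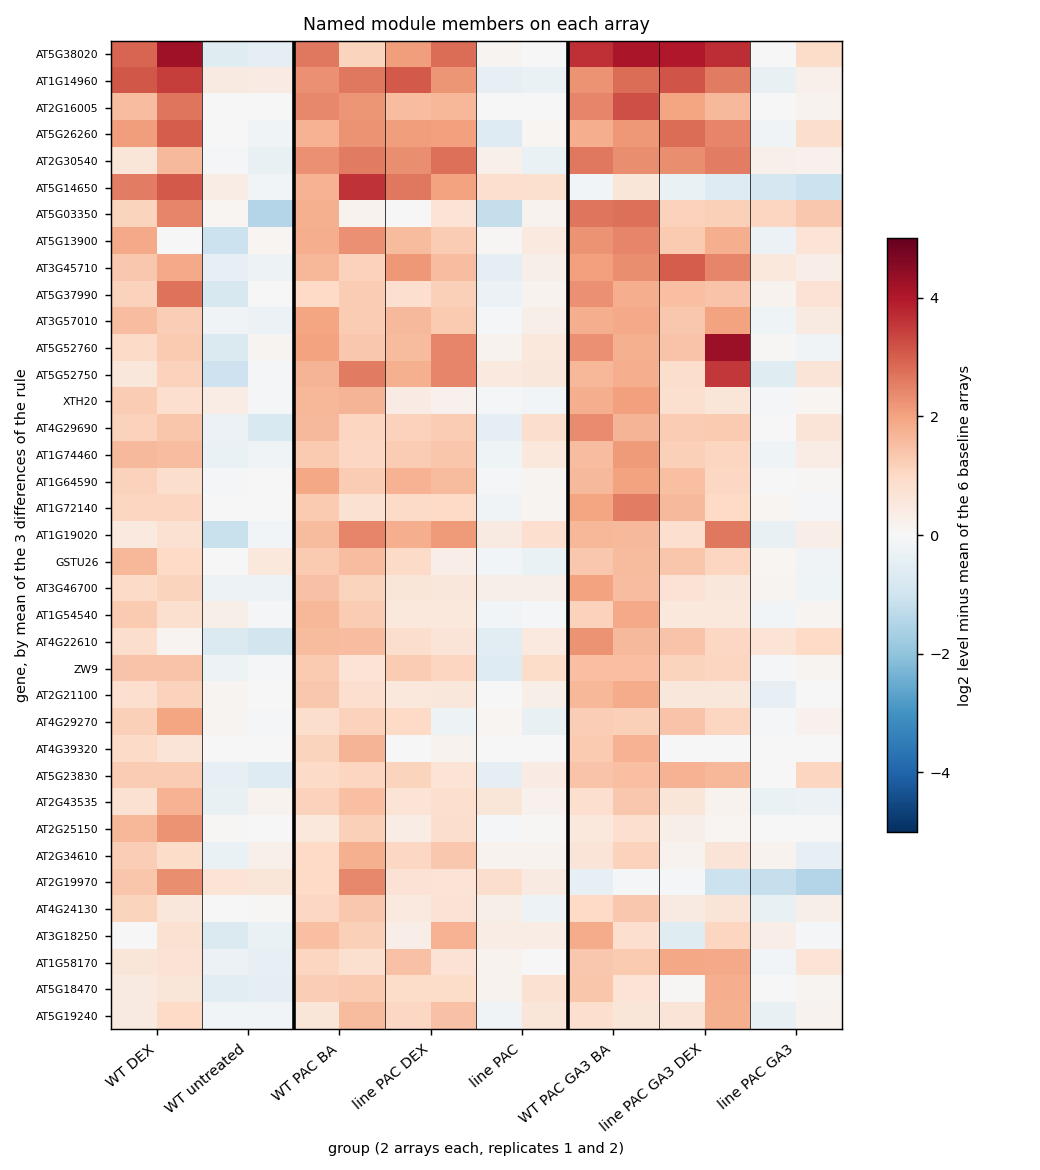
Log2 level of the 37 named members (rows, ordered by the mean of the 3 differences that chose them) on each of the 16 arrays (columns, 2 per group), minus the mean of the 6 arrays without DEX or BA. WT is wild type, and heavy lines part the groups without PAC, with PAC, and with PAC and GA3. Arrays with DEX or BA are mostly red, AT5G14650 and AT2G19970 are pale or blue on all arrays with GA3, and AT5G52760 stands out on 1 array of the line with PAC, GA3 and DEX, at 7.75 against 4.89 on the other.

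The 37 named members were spread over the 5 chromosomes, with 9, 7, 4, 5 and 12 on chromosomes 1 to 5 by their locus names. Neighbours among them were AT5G52750 and AT5G52760, which lie side by side, and AT5G37990 and AT5G38020, which lie 3 genes apart. AT5G38020 also lies next to AT5G38030, which met the differences and was left out by name. Related genes can share signal on an array, and this was not tested.

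Proteins of kinds that join groups to small molecules or otherwise modify them made up 7 of the named members. The largest change of any named member in wild type with DEX was that of AT5G38020, which encodes a SABATH-type methyltransferase, a family that methylates salicylate, jasmonate and similar small acids. Its levels were 5.94 and 7.28 in wild type with DEX, 5.69 and 4.13 in wild type with PAC and BA, 6.69 and 7.11 in wild type with PAC, GA3 and BA, 5.11 and 5.84 in the line with PAC and DEX and 7.05 and 6.73 in the line with PAC, GA3 and DEX, against 2.42 and 2.57 in untreated wild type, 3.18 and 3.05 in the line with PAC and 3.03 and 3.96 in the line with PAC and GA3. All 10 arrays with DEX or BA were above all 6 without, and the replicates of wild type with PAC and BA were far apart. Its difference was 4.11 for DEX in wild type, 1.80 for BA in PAC and 3.40 for BA in PAC with GA3 (SE 0.50 each, n = 2 per group), and 2.36 and 3.39 for DEX in the line, without and with GA3. Here and below the SE comes from a spread pooled over all 8 groups. It is therefore the same for each difference between groups of a probe set and is not the spread of the arrays compared.

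Its near neighbour AT5G37990, of the same enzyme family, was at 4.75 and 6.28 in wild type with DEX, 4.56 and 4.84 in wild type with PAC and BA, 5.86 and 5.38 in wild type with PAC, GA3 and BA, 4.40 and 4.77 in the line with PAC and DEX and 5.08 and 4.98 in the line with PAC, GA3 and DEX, against 2.78 and 3.61 in untreated wild type, 3.29 and 3.75 in the line with PAC and 3.74 and 4.29 in the line with PAC and GA3. The groups with DEX or BA again lay above all arrays without, by 2.32 for DEX in wild type, 1.18 for BA in PAC and 1.60 for BA in PAC with GA3 (SE 0.42). DEX in the line gave less than in wild type, with 1.06 in PAC and 1.02 in PAC with GA3.

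AT2G25150, a BAHD acyltransferase linked to spermidine conjugation, was highest in wild type with DEX, at 4.28 and 4.86. It was at 3.15 and 3.81 in wild type with PAC and BA, 3.17 and 3.47 in wild type with PAC, GA3 and BA, 3.00 and 3.50 in the line with PAC and DEX and 2.94 and 2.74 in the line with PAC, GA3 and DEX, against 2.71 and 2.60 in untreated wild type, 2.57 and 2.71 in the line with PAC and 2.61 and 2.61 in the line with PAC and GA3. Only wild type with DEX reached the level of 4 used as the filter. Its difference for DEX was 1.92 in wild type (SE 0.25), against 0.62 and 0.23 in the line, without and with GA3. The other enzymes of the group were GSTU26, a tau-class glutathione transferase of the kind that detoxifies foreign compounds, with 1.07 for DEX in wild type, 1.66 and 1.50 for BA and 0.89 and 1.27 for DEX in the line. AT3G57010, which resembles strictosidine synthase, had 1.63 for DEX in wild type and 1.33 and 1.56 in the line, AT1G64590, a short-chain dehydrogenase, had 1.04, 1.64 and 1.28, and AT3G46700, a UDP-glycosyltransferase, had 1.29, 0.29 and 0.68.

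Redox and metal-binding proteins numbered 3 among the named members. AT2G30540 encodes a CC-type glutaredoxin, a plant-specific class of small thiol proteins. It was at 4.94 and 5.94 in wild type with DEX, 6.60 and 6.92 in wild type with PAC and BA, 6.96 and 6.63 in wild type with PAC, GA3 and BA, 6.65 and 7.09 in the line with PAC and DEX and 6.66 and 6.88 in the line with PAC, GA3 and DEX, against 4.27 and 3.96 in untreated wild type, 4.57 and 3.99 in the line with PAC and 4.55 and 4.55 in the line with PAC and GA3. Both arrays of wild type with DEX lay above all 6 arrays without DEX or BA and below all 8 other arrays with one of them. Its difference was 1.33 for DEX in wild type and 2.48 and 2.25 for BA (SE 0.30), and 2.59 and 2.22 for DEX in the line.

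AT5G52760 and AT5G52750 encode small proteins with a heavy-metal-associated domain. AT5G52760 was at 4.41 and 4.77 in wild type with DEX, 5.47 and 4.80 in wild type with PAC and BA, 5.77 and 5.24 in wild type with PAC, GA3 and BA, 5.06 and 5.91 in the line with PAC and DEX and 4.89 and 7.75 in the line with PAC, GA3 and DEX, against 2.73 and 3.60 in untreated wild type, 3.63 and 4.01 in the line with PAC and 3.54 and 3.28 in the line with PAC and GA3. The replicates of the line with PAC, GA3 and DEX differed more than those of any other group, and AT5G52750 did the same there, at 4.86 and 7.49. For DEX in the line AT5G52760 had 1.67 in PAC and 2.91 in PAC with GA3 (SE 0.66), against 1.42 for DEX in wild type, and AT5G52750 had 1.57 and 2.20, against 1.41.

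That array, replicate 2 of the line with PAC, GA3 and DEX, was at least 1 above replicate 1 for 13 members and at least 1 below for 3, or 17.6% of members, beside 3.05% of all tested probe sets. The named members among the 16 were AT5G52760, AT5G52750, AT5G19240, AT5G18470, AT3G18250, AT1G19020 and AT2G19970. Replicates of wild type with DEX were as uneven, with replicate 2 higher by at least 1 for 15 members and replicate 1 for 3, or 19.8% beside 1.65% of all. In the other 6 groups the share of members was 4.4% to 16.5%, beside 0.92% to 2.89% of all tested probe sets. Replicate 2 was more often the higher in the line with PAC (10 members against 0) and the line with PAC and GA3 (8 against 2). It also was in the line with PAC and DEX (6 against 1) and untreated wild type (4 against 2). Replicate 1 more often was in wild type with PAC and BA (9 against 6) and wild type with PAC, GA3 and BA (3 against 1). The median SD between replicates was 0.157 to 0.326 for members in the 8 groups and 0.112 to 0.181 for all tested probe sets.

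Proteins with lipid-binding or lipid-transfer folds numbered 5. AT1G14960, of the Bet v 1 and major latex protein family, which binds small hydrophobic molecules, had levels of 7.52 and 7.84 in wild type with DEX, 6.67 and 7.04 in wild type with PAC and BA, 6.66 and 7.17 in wild type with PAC, GA3 and BA, 7.45 and 6.62 in the line with PAC and DEX and 7.53 and 7.0 in the line with PAC, GA3 and DEX, against 4.86 and 4.80 in untreated wild type, 4.0 and 4.05 in the line with PAC and 4.01 and 4.66 in the line with PAC and GA3. The lowest array with DEX or BA was far above the highest without. All 5 differences were alike in size, with 2.85 for DEX in wild type, 2.83 and 2.58 for BA and 3.01 and 2.93 for DEX in the line (SE 0.30 each).

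AT2G16005 has an MD-2-related lipid-recognition domain. Its levels were 4.14 and 5.28 in wild type with DEX, 4.98 and 4.78 in wild type with PAC and BA, 5.02 and 5.80 in wild type with PAC, GA3 and BA, 4.15 and 4.24 in the line with PAC and DEX and 4.58 and 4.22 in the line with PAC, GA3 and DEX, against 2.56 and 2.56 in untreated wild type, 2.56 and 2.56 in the line with PAC and 2.55 and 2.75 in the line with PAC and GA3. Nearly equal values on the 6 arrays without DEX or BA lie close to the lowest values of the table, so their spread is that of the background and its differences are lower bounds. These were 2.16 for DEX in wild type, 2.32 and 2.76 for BA and 1.64 and 1.75 for DEX in the line (SE 0.31).

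AT5G13900, a lipid-transfer-type protein, had groups that overlapped. It was at 5.74 and 3.84 in wild type with DEX, 5.64 and 6.13 in wild type with PAC and BA, 6.06 and 6.28 in wild type with PAC, GA3 and BA, 5.41 and 5.09 in the line with PAC and DEX and 5.14 and 5.65 in the line with PAC, GA3 and DEX, against 2.76 and 3.95 in untreated wild type, 3.89 and 4.33 in the line with PAC and 3.52 and 4.53 in the line with PAC and GA3. The lower array of wild type with DEX was below the higher one of untreated wild type, and the difference of 1.43 (SE 0.54) rests on the other array with DEX. Of the remaining members with such folds, AT5G23830, another MD-2-related protein, had 1.78 for DEX in wild type and 0.92 and 1.13 in the line, and AT4G22610, a lipid-transfer-type protein, had 1.34 in wild type and 0.79 and 0.37 in the line.

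**Figure D2:**
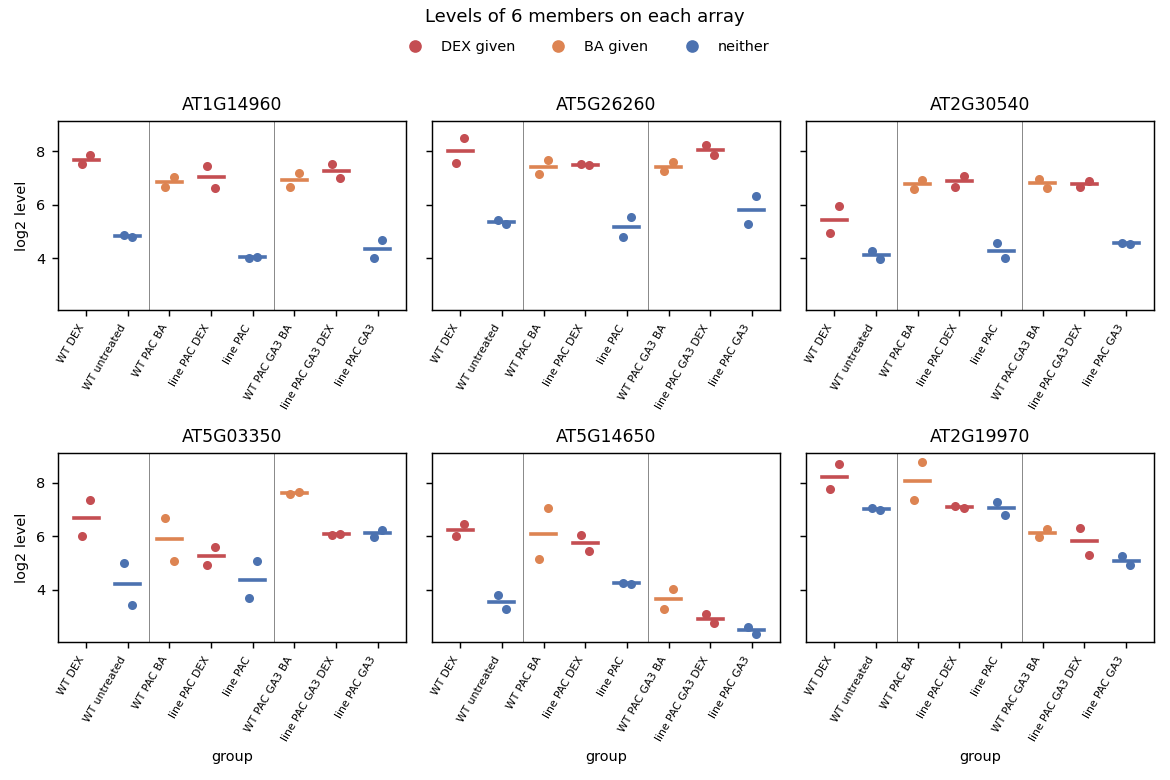
Log2 level of 6 members on each array: points are the 2 arrays of a group, bars their mean, and colours show whether DEX, BA or neither was given; groups are parted into those without PAC, with PAC, and with PAC and GA3. AT1G14960, AT5G26260 and AT2G30540 have all 10 arrays with DEX or BA above the 6 without, while AT5G14650 and AT2G19970 are lower in all groups with GA3 than in the matching groups without.

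Members of cell wall and cuticle biology also numbered 5. The polygalacturonase AT5G14650, of a family that cuts pectin, was at 6.00 and 6.48 in wild type with DEX, 5.17 and 7.04 in wild type with PAC and BA, 3.28 and 4.02 in wild type with PAC, GA3 and BA, 6.06 and 5.46 in the line with PAC and DEX and 3.09 and 2.78 in the line with PAC, GA3 and DEX, against 3.80 and 3.30 in untreated wild type, 4.26 and 4.23 in the line with PAC and 2.60 and 2.37 in the line with PAC and GA3. Within each condition the arrays with DEX or BA were above those without, but the arrays with GA3 and DEX or BA lay between 2.78 and 4.02, close to those of untreated wild type. Its differences were 2.69 for DEX in wild type, 1.86 and 1.16 for BA and 1.51 and 0.44 for DEX in the line (SE 0.46).

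XTH20, a xyloglucan endotransglucosylase/hydrolase that remodels hemicellulose, responded most where BA was given, with 1.80 in PAC and 1.94 in PAC with GA3, against 0.93 for DEX in wild type and 0.44 and 0.70 for DEX in the line. The dirigent proteins AT1G58170 and AT2G21100, of a family that steers phenolic coupling, had 1.04 and 0.94 for DEX in wild type. In the line AT1G58170 had 0.99 and 1.66 and AT2G21100 had 0.40 and 0.77. AT1G74460, a GDSL-type lipase or esterase, had 1.83 for DEX in wild type and 1.16 and 1.05 in the line.

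Lectins and small defence-related proteins numbered 4, and this group had the smallest DEX differences in the line of those with a role, with medians of 0.40 in PAC and 0.71 in PAC with GA3, against 1.28 for DEX in wild type. AT5G03350, a legume-type lectin, was at 6.03 and 7.35 in wild type with DEX, 6.68 and 5.10 in wild type with PAC and BA, 7.57 and 7.68 in wild type with PAC, GA3 and BA, 4.93 and 5.59 in the line with PAC and DEX and 6.05 and 6.11 in the line with PAC, GA3 and DEX, against 5.01 and 3.45 in untreated wild type, 3.70 and 5.07 in the line with PAC and 5.97 and 6.26 in the line with PAC and GA3. The 2 groups of the line with GA3 overlapped completely, and those of the line in PAC overlapped in part. Its differences were 2.46 for DEX in wild type, 1.51 and 1.51 for BA, and 0.88 and -0.03 for DEX in the line, all with an SE of 0.61.

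AT2G19970, a PR-1-like protein of the CAP superfamily, was at 7.75 and 8.71 in wild type with DEX, 7.37 and 8.79 in wild type with PAC and BA, 5.99 and 6.27 in wild type with PAC, GA3 and BA, 7.13 and 7.06 in the line with PAC and DEX and 6.32 and 5.31 in the line with PAC, GA3 and DEX, against 7.07 and 6.98 in untreated wild type, 7.27 and 6.82 in the line with PAC and 5.25 and 4.92 in the line with PAC and GA3. In PAC the line with DEX lay within the range of the line without. DEX gave 1.21 in wild type (SE 0.43), against 0.05 and 0.73 in the line. AT5G18470, a mannose-binding curculin-like lectin, had 1.07 for DEX in wild type and 0.46 and 0.87 in the line, and AT2G43535, a small protein of the knottin and defensin kind, had 1.36, 0.35 and 0.70.

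Among proteins with a MATH domain, AT5G26260 had the larger differences. It was at 7.54 and 8.47 in wild type with DEX, 7.16 and 7.68 in wild type with PAC and BA, 7.25 and 7.58 in wild type with PAC, GA3 and BA, 7.50 and 7.48 in the line with PAC and DEX and 8.21 and 7.87 in the line with PAC, GA3 and DEX, against 5.42 and 5.26 in untreated wild type, 4.77 and 5.54 in the line with PAC and 5.27 and 6.32 in the line with PAC and GA3. No array with DEX or BA came down to the highest array without. Its differences were 2.67 for DEX in wild type, 2.26 and 1.62 for BA and 2.33 and 2.25 for DEX in the line (SE 0.37). The related ZW9 had 1.58 for DEX in wild type and 1.04 and 1.09 in the line.

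Transporters of the NRT1/PTR family, which carry nitrate, peptides and hormones, gave a pair of members. AT3G45710 was at 5.07 and 5.61 in wild type with DEX, 5.40 and 4.88 in wild type with PAC and BA, 5.79 and 6.04 in wild type with PAC, GA3 and BA, 5.88 and 5.26 in the line with PAC and DEX and 6.76 and 6.19 in the line with PAC, GA3 and DEX, against 3.34 and 3.46 in untreated wild type, 3.26 and 4.01 in the line with PAC and 4.24 and 4.06 in the line with PAC and GA3. The line with PAC, GA3 and DEX was above every other group, and no array with DEX or BA overlapped those without. Differences for DEX were 1.95 in wild type and 1.94 and 2.32 in the line (SE 0.30), and AT1G72140 had 1.06, 1.00 and 1.30.

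The phosphatase-like members were AT4G29690, a nucleotide pyrophosphatase or phosphodiesterase, with 1.80 for DEX in wild type and 1.00 and 0.95 in the line, and AT4G29270, an acid phosphatase of the vegetative storage protein type, with 1.53, 0.49 and 1.15. No role is given here for 7 named members. AT4G39320 had the smallest mean of the 2 DEX differences in the line among named members. It was at 3.87 and 3.56 in wild type with DEX, 4.02 and 4.61 in wild type with PAC and BA, 4.20 and 4.65 in wild type with PAC, GA3 and BA, 2.90 and 3.08 in the line with PAC and DEX and 2.90 and 2.90 in the line with PAC, GA3 and DEX, against 2.90 and 2.90 in untreated wild type, 2.90 and 2.90 in the line with PAC and 2.90 and 2.90 in the line with PAC and GA3. On 9 of the 10 arrays other than those of wild type with DEX or BA it stayed at 2.90, near the background, where a lower level could not have been seen. DEX gave 0.82 in wild type (SE 0.20), and 0.09 and 0.00 in the line.

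AT3G18250 was at 3.94 and 4.69 in wild type with DEX, 5.43 and 5.09 in wild type with PAC and BA, 5.76 and 4.76 in wild type with PAC, GA3 and BA, 4.26 and 5.65 in the line with PAC and DEX and 3.31 and 5.00 in the line with PAC, GA3 and DEX, against 3.21 and 3.60 in untreated wild type, 4.31 and 4.31 in the line with PAC and 4.24 and 3.85 in the line with PAC and GA3. Both pairs of groups of the line overlapped. DEX gave 0.91 in wild type (SE 0.53), and 0.65 and 0.11 in the line. The differences for DEX in the line were 1.31 and 1.76 for AT1G19020, 1.02 and 1.30 for AT5G19240, 1.03 and 0.53 for AT2G34610, 0.58 and 0.59 for AT4G24130 and 0.63 and 0.52 for AT1G54540.

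Members close to a threshold could have fallen on either side of it. Just inside were AT2G25150, with 0.71 for BA in PAC with GA3, and AT4G39320 and AT4G24130, with 0.82 each for DEX in wild type. Just outside were AT5G12420, with 0.69 for BA in PAC, and AT1G19380 and AT1G31690, with 0.78 and 0.77 for DEX in wild type. When each array was left out in turn, 50 of the 91 members, 19 of them named, met the rule every time.

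DEX in the line bears on whether the same probe sets also responded where ARR1ΔDDK-GR was present. The 4 arrays of the line with DEX entered the rule only through the brightness filter, but the arrays of the line without DEX were part of its differences, and low values there favoured a member, so the differences of the members are given without a test. In PAC the line with DEX lay above the line without by a median of 1.14 over the 91 members, or 2.20-fold, with a range of -0.61 to 5.19, and 89 differences were above 0. In PAC with GA3 the median was 1.21, or 2.31-fold, with a range of -1.24 to 5.17, and 85 were above 0. Over all tested probe sets the medians were -0.03 and -0.02, and 46.9% and 48.2% of differences were above 0. At least 1 was reached by 54 members in PAC and by 56 in PAC with GA3, where 4.08% and 4.82% of all tested probe sets reached it. Of the members 47, 17 of them named, reached it in both, which at most 4.08% of all tested probe sets can have done.

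Both arrays of the line with PAC and DEX were above both of the line with PAC for 77 members, beside 24.6% of all tested probe sets. With GA3 this held for 76, beside 30.2% of all. The responses in the line and in wild type shared no arrays and differed in PAC as well as in genotype. The line's difference was above that of wild type in both conditions for 21 members, 7 of them named, and below it in both for 59, 26 of them named. AT2G30540 stood on the higher side, by 1.26 in PAC and 0.89 in PAC with GA3, and on the lower side were AT5G03350, with -1.58 and -2.49, AT5G14650, with -1.18 and -2.25, AT2G25150, with -1.30 and -1.69, and AT5G37990, with -1.25 and -1.30. Members were required to be high in wild type with DEX, which by itself places them toward the lower side, so no test was made of these counts. Both line differences were under 0.5 for 6 members, of which AT4G39320 was named.

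**Figure D3:**
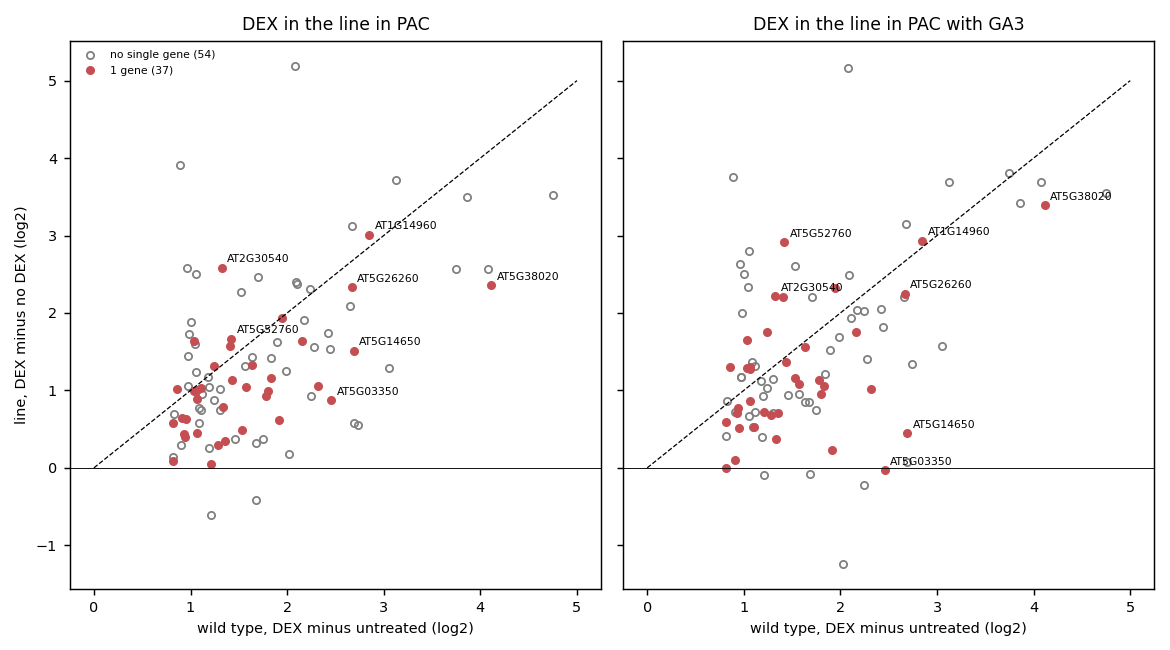
Difference between DEX and no DEX in the 35S::ARR1ΔDDK-GR line (vertical axis, log2; left in PAC, right in PAC with GA3) against the difference between DEX and no treatment in wild type (horizontal axis, log2), 1 point per member. On the dashed line both are equal: 59 members lie below it in both panels and 21 above it in both. On both vertical axes 47 have at least 1, which at most 4.08% of all tested probe sets can have.

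To test DEX in the line on probe sets whose differences were chosen on other arrays, the rule was also applied without the criterion that used the line with PAC. This gave 126 probe sets, the 91 members among them. All 126 also passed the brightness filter on the 12 arrays outside the comparison. Of the 126, 51 rose with DEX in the line in PAC and 1 fell in limma at an adjusted p under 0.05, where 9.12% and 8.31% of all 9454 tested probe sets did. The median of the 126 was 0.88, against -0.03 over all tested, and 117 of the 126 differences were above 0. Likewise, the rule without the criterion that used the line with PAC and GA3 gave 104 probe sets, which again all passed the filter on the 12 other arrays, and of which 56 rose and 0 fell with DEX in the line in PAC with GA3, where 10.4% and 7.66% of all did. Their median was 1.13, against -0.02 over all tested, and 94 were above 0. Of the 56 calls 22 were of named genes, and of the 51 calls 15 were. Most calls were of members: of the 35 probe sets outside the module 4 were called in PAC (3 higher and 1 lower), and of 13 with GA3 1 was called. Those probe sets had failed the criterion on the line without DEX, so they were not compared with the members.

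These counts depended on single arrays. Without replicate 1 of the line with PAC the calls among the 126 came to 34 in either direction, and without replicate 1 of the line with PAC and DEX to 32, in place of 52, with 14.3% and 9.31% of all called in those fits. Among the 104 they came to 35 without replicate 1 of the line with PAC and GA3, and to 34 when dim probe sets were kept, in place of 56, with 8.43% and 5.97% of all called.

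**Figure D4:**
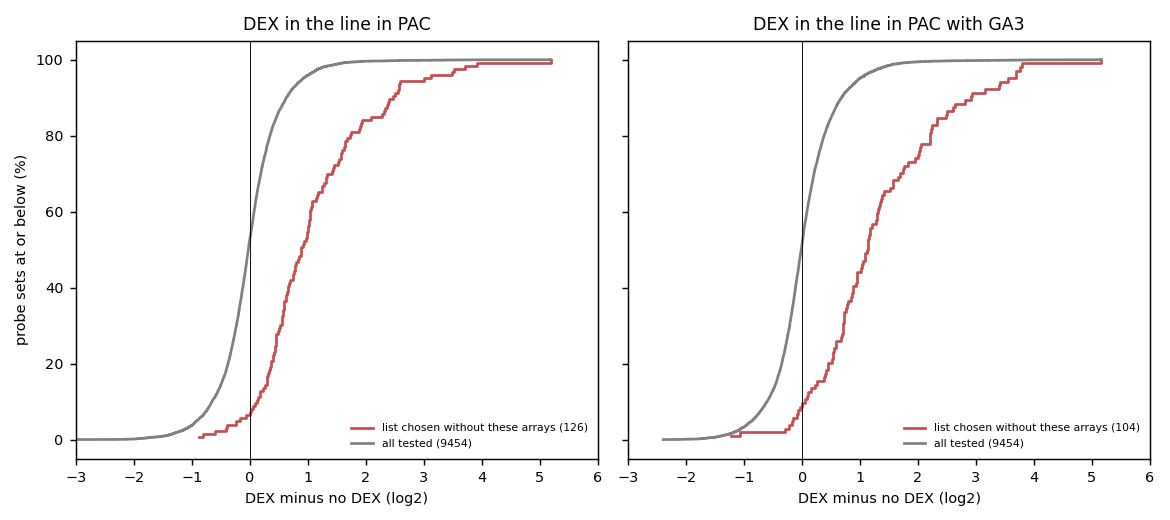
Cumulative share of probe sets (vertical axis, %) at or below each difference between DEX and no DEX in the line (horizontal axis, log2). Red is the list whose differences were chosen on other arrays, 126 probe sets in PAC (left) and 104 in PAC with GA3 (right), and grey is all 9454 tested. The red curves lie to the right, with medians of 0.88 and 1.13 against -0.03 and -0.02, and reach 5.19 and 5.17.

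Whether the DEX response of the line differed between PAC and PAC with GA3 was fitted for each member as an interaction. The arrays of the line without DEX enter it and had also chosen the members, so the counts are a description. None of the 91 passed in limma, beside 0.0% of all tested probe sets, and 3 had an unadjusted p under 0.05, or 3.3% beside 1.99% of all. Written as PAC minus PAC with GA3, the difference had a median of -0.12 and a range of -1.24 to 1.41. For a typical member the 95% interval of a single difference between groups reached 0.68 to either side, and that of an interaction is wider still.

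GA3 in the line with DEX was the comparison whose 4 arrays entered none of the rule's differences. All but 1 of the members also passed the brightness filter on the other 12 arrays. With limma 0 of the 91 members passed in either direction, beside 0.0% of all tested probe sets. At an unadjusted p under 0.05 there were 19, or 20.9%, beside 9.81% of all. A Z test built from the study's methods, which divides a difference by its spread over probe sets and not by replicate error, called 22, and 4.46% of all. The median was 0.17, against 0.08 over all tested, and 59 of 91 members were higher with GA3, where 62.9% of all were.

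Members moved both ways. AT5G14650 had the lowest difference, with -2.83 ± 0.46 in the line with DEX (SE, limma adjusted p = 0.125, the smallest among members), -1.76 in the line without DEX and -2.46 in wild type with BA. AT2G19970 was also lower with GA3 in each, with -1.28 in the line with DEX, -1.96 ± 0.43 in the line without (limma adjusted p = 0.0852, the smallest there) and -1.95 in wild type with BA. AT5G03350 was higher in each, with 0.82, 1.73 and 1.73, and AT5G38020 had 1.42, 0.38 and 1.98. None of these passed the test across all probe sets. For the 91 members the GA3 difference in the line with DEX correlated with that in the line without (r = 0.74) and with that in wild type with BA (r = 0.662), and over all 9454 tested probe sets the correlations were 0.665 and 0.0864. These are correlations across probe sets, which are not independent, between comparisons that share no arrays. Both BA differences of the rule set wild type with BA against the line without DEX. The choice of members therefore ties their GA3 differences in those 2 to each other (r = 0.685, against 0.0216 over all tested). For this reason the 0.662 of the members is not independent of the rule and cannot be read against the 0.0864.

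**Figure D5:**
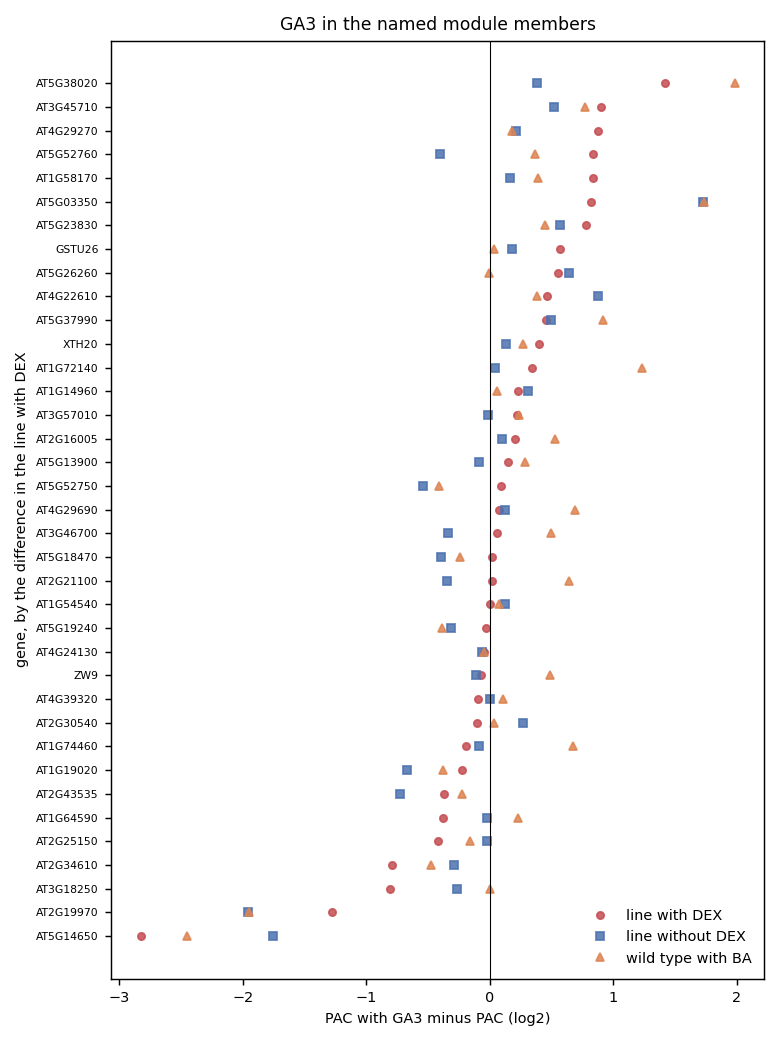
Difference between PAC with GA3 and PAC (horizontal axis, log2) for the 37 named members (vertical axis) in the line with DEX (circles), in the line without DEX (squares) and in wild type with BA (triangles). AT5G14650 and AT2G19970 are the lowest in all 3, from -1.28 to -2.83, and 0 of the 37 passed the test in any of them.

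GA3 was also read in the line without DEX and in wild type with BA, on arrays that had chosen the members as low or as high, so these counts describe the members and are not independent of the rule. In the line without DEX 0 of the 91 members passed in limma, beside 0.116% of all tested probe sets (0.0212% higher and 0.0952% lower). There 17 members, or 18.7%, had an unadjusted p under 0.05, beside 15.3% of all, and the Z test called 15, and 5.23% of all. The median was 0.02, which turned to -0.03 when arrays were centred on their 75th percentile, and the range was -1.96 to 2.70. In wild type with BA the median was 0.31, against 0.04 over all tested, 67 of 91 were higher with GA3, where 55.6% of all were, and 25 members, or 27.5%, had an unadjusted p under 0.05, beside 10.7% of all. In limma 1 member passed, being higher with GA3, beside 0.0317% of all tested probe sets (0.0106% higher and 0.0212% lower).

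That member, probe set 261428_at, has no gene in the annotation. It was at 5.42 and 5.59 in wild type with PAC, GA3 and BA, against 4.18 and 3.78 in wild type with PAC and BA, a difference of 1.52 ± 0.19 (SE, limma adjusted p = 0.0217). Both arrays with GA3 were the highest of the 16. The others were 4.12 and 4.63 in wild type with DEX, 3.86 and 3.83 in the line with PAC and DEX, 4.07 and 3.92 in the line with PAC, GA3 and DEX, 3.28 and 3.28 in untreated wild type, 3.08 and 3.08 in the line with PAC and 3.31 and 3.62 in the line with PAC and GA3. The call was lost when either array of the line with PAC, either array of wild type with PAC, GA3 and BA, or replicate 2 of wild type with PAC and BA was left out, and without replicate 1 of wild type with PAC and BA 9 members passed, beside 1.83% of all in that fit.

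The 2 kinds of seedlings without DEX or BA were compared as well, although both had to be low for a member to be chosen. Between the line with PAC and untreated wild type, which differ in genotype and in PAC, 1 of the 91 members passed in limma, being higher in the line, beside 0.159% of all tested probe sets (0.116% higher and 0.0423% lower). Without adjustment 11 members had a p under 0.05, or 12.1% beside 15.7% of all. The median was 0.15, against -0.06 over all tested, and 60 of the 91 members were higher in the line, where 42.6% of all were. The member that passed was probe set 246481_s_at, which matches several genes and is among the brightest members. It was at 10.38 and 10.16 in the line with PAC, against 9.04 and 9.01 in untreated wild type, a difference of 1.24 ± 0.20 (SE, limma adjusted p = 0.0252). On the other arrays it was at 10.51 and 10.47 in wild type with DEX, 11.08 and 11.33 in wild type with PAC and BA, 11.13 and 10.95 in wild type with PAC, GA3 and BA, 10.77 and 10.51 in the line with PAC and DEX, 10.42 and 10.47 in the line with PAC, GA3 and DEX and 9.19 and 9.81 in the line with PAC and GA3. All arrays with DEX or BA were above those without, and the call was lost when replicate 1 of the line with PAC or any 1 array of untreated wild type or of wild type with DEX was left out.

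Few genes of known pathways could be placed beside the members. Of 173 genes in 14 pathway lists, 21 were tested by a probe set with a single gene name, and GSTU26 was the only member in any list. It was 1 of 7 tau-class glutathione transferases tested. Of the other 6, GSTU16 fell by 1.95, GSTU18 by 0.97 and GSTU27 by 1.09 with DEX in the line in PAC (limma adjusted p = 9.09e-05, 0.00424 and 0.0149), and GSTU20, GSTU22 and GSTU25 did not pass, with -0.37, -0.47 and 0.60. With GA3 the same 3 fell, by 1.25, 0.86 and 1.44. In wild type with DEX the 6 had differences of -0.55 to 0.66, against 1.07 for GSTU26. Of the 3 genes of the primary cytokinin response that were tested, RR16 met the differences and was left out by name. It had 1.22 for DEX in wild type, 2.13 for BA in PAC and 5.00 for DEX in the line in PAC. ARR15 and UGT76C2 did not meet the rule, with 0.05 and 0.23 for DEX in wild type. For these 2, DEX in the line gave 3.33 and 1.88 in PAC, and BA gave 1.27 and 1.18 (no test was used for BA). AT5G47980, of the thalianol cluster of root triterpene genes, and BGLU28, a sulfur limitation marker, met the differences and were left out by name.

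Tissue markers gave little to check the seedlings by. Of 9 root markers 2 were named, of which PYK10, an abundant root β-glucosidase, had group means of 11.5 in wild type with DEX and 11.1 in untreated wild type, 11.0 to 11.4 in the 4 other groups with DEX or BA, and 11.0 to 11.3 in the line without DEX. EXPA7, of root hairs, was at 2.38 to 2.81, under the filter, in all 8 groups. None of 10 green shoot markers was named. The part of tissue proportions in the module's differences was not tested, and in RNA of whole seedlings a change in the number of cells of a type and a change in RNA per cell cannot be told apart. All arrays had like medians, 3.08 to 3.12, and replicates correlated at 0.968 to 0.985 over all tested probe sets.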

How the data were processed

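RNA of whole seedlings was hybridised to Affymetrix ATH1 arrays. The authors deposited 1 table with a log2 level for each probe set and array, computed by GCRMA, which the submitters' processing notes name without a version; it subtracts background, normalizes across arrays and summarises probes, and it sets dim probe sets to nearly constant low values. Of 22810 probe sets, 64 controls were left out, and the 9454 that reached a level of 4 on 2 or more of the 16 arrays were tested; 13292 were dim. Array number, at 2 per group, limits the precision. Groups came from the labels, which call replicates biological. The module, gene lists and tests were chosen with earlier results of these data known.

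A model of 8 group means was fitted to all arrays in R 4.3.3, using limma 3.58.1 (functions lmFit, contrasts.fit and eBayes; 8 residual and 4.66 prior degrees of freedom). Tests were two-sided, with Benjamini-Hochberg adjustment over 9454 probe sets and a threshold of 0.05, and the code was tested on simulated data. The study's methods name a Z-score transformation; one reading of it, with a threshold of 1.96, was run as an alternative. Other alternatives were quantile normalization, centring on the 75th percentile, another filter or none, thresholds of 0.6 and 1.0, a fit of the compared groups only, trend and robust eBayes, untreated wild type as the comparator of BA, a replicate block, each array left out and, added later, the filter read on the arrays outside a comparison. Tables were made with Python 3.11.15, pandas 2.3.3 and matplotlib 3.10.9.

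Genes came from the platform's annotation, with 4925 tested probe sets having 1 gene, 225 several and 4304 none; whether genes lie side by side came from the RefSeq TAIR10.1 gene table. All members with 1 gene are named; levels on all arrays are given for the 10 with the highest mean of the 3 differences of the rule, the 5 with the largest and the 5 with the smallest mean DEX difference in the line, and members called. At most 2 members without a single gene are given by probe set. A promoter motif search was planned and not run, since no promoter sequence was used here.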

Additional observations from a re-analysis of the deposited data

How the results depend on the processing

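Arrays, at 2 per group, set what could be seen: for members a 95% interval of a difference between groups reached a median of 0.68 to either side (0.44 over all tested probe sets), and low levels near the background have no measurable decrease. The module held 59 probe sets with a filter at 6 in place of 4 and 54 with thresholds of 1.0, all of them members, and 79 to 98 when an array was left out. Of the 91, 89 met the rule after quantile normalization, 89 after centring and 85 with untreated wild type as the comparator of BA. Scaling moved the median of all probe sets by no more than 0.091 in size. The Z test called 22 members for GA3 in the line with DEX, 15 in the line without DEX, 26 in wild type with BA, 24 for the difference of the DEX responses and 17 for the line in PAC against untreated wild type; it uses no replicate error, and it called 4.46%, 5.23%, 5.07%, 5.0% and 5.24% of all tested probe sets. For GA3 in wild type with BA 0 members were called with the filter at 6. That filter left out the 1 member called, probe set 261428_at, whose highest level was 5.59. With only the groups compared 0 members were called there, and 0 for the line in PAC against untreated wild type. Fewer arrays entered the fits of only the groups compared, and the cause was not tested. Leaving out 1 array gave 0 to 1 calls for GA3 in the line with DEX (1 without either array of wild type with PAC and BA), 0 to 1 in the line without DEX (likewise), 0 to 9 in wild type with BA (the 9 beside 1.83% of all), 0 to 0 for the difference of the DEX responses and 0 to 1 for the line against untreated wild type. For DEX in the line it gave 32 to 53 calls of 126 in PAC and 35 to 62 of 104 in PAC with GA3, where 34 were called without a filter, and medians over members of 1.00 to 1.42 in PAC and 1.14 to 1.30 in PAC with GA3. Of the values recomputed under the alternatives none changed sign, except that the median of members for GA3 in the line without DEX, 0.02, became -0.03 with centring, and that the medians over all tested probe sets crossed 0 with one or both scalings for GA3 in the line with DEX (0.08 to -0.01 with quantile normalization), GA3 in wild type with BA (0.04 to -0.03 with centring) and the difference of the DEX responses (-0.02 to 0.01 with quantile normalization). After the data had been seen, the brightness filter was also read only on the 12 arrays outside a comparison. It left 90 members, 0 of them called for GA3 in the line with DEX, beside 0% of all. For DEX in the line it left the same 126 and 104 probe sets. Of the 126, 51 rose and 1 fell in PAC, beside 9.15% and 8.2% of all. Of the 104, 56 rose and 0 fell in PAC with GA3, beside 10.2% and 7.64% of all. Nothing in the labels ties same-numbered arrays to each other, and the numbers were not taken to pair them because not every pair of groups passed 0.1: deviations of same-numbered arrays correlated at -0.331 to 0.48 over 28 pairs (median 0.207), and 21 exceeded 0.1. With the replicate number as a block the calls were 0, 0, 1, 0 and 1 in the 5 tests of members, in the order of the Z test counts, and 58 and 59 for DEX in the line. In the same order the block fits called 0.0106%, 0.201%, 0.0317%, 0.0% and 0.497% of all tested probe sets. For DEX in the line they called 20.0% and 20.6% of all.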
